A study of Mus musculus with 4 samples.

Results

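The genes described here are 43 genes of ribosome biogenesis and the nucleolus, found by symbol among the 55487 gene rows of the deposited tables. All 43 were present, each with 1 row, and all 43 passed the filter on low counts that left 27551 genes. They were sorted by known role into RNA polymerase I and its regulators (6 genes), processing of the small subunit (13), assembly of the large subunit (13), small nucleolar ribonucleoproteins or snoRNPs (7) and nucleolar proteins with several roles (4). The genes were selected on their measured difference between the morpholinos in these libraries, so those differences are given below as a description. The fit over all genes is reported for its calls and, as a description, for the log2 fold change and standard error (SE) of named genes. That fit leaves out the pairing by mouse. Nothing about the 43 is supported with it.

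The RNA came from muscle stem (satellite) cells of the skeletal muscle of Tg:Pax7-nGFP mice, a reporter strain in which the promoter of the satellite cell gene Pax7 drives a nuclear green fluorescent protein. Minced muscle was exposed during its initial digestion to a vivo-morpholino, an antisense oligomer that enters cells without transfection. One oligomer (Numb exon 6, here Numb6) blocks inclusion of that exon of Numb, which encodes an endocytic adaptor and inhibitor of Notch signalling, and a control oligomer served for comparison. Tissue of 2 mice received both, giving 2 libraries per group and 4 in all, and both groups carried the same transgene. Satellite cells were isolated after the exposure. The labels give no age or time in culture. The study asked which transcripts follow the switch in Numb splicing during activation of satellite cells.

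Ribosomes are made in the nucleolus, where RNA polymerase I transcribes the ribosomal DNA into 1 long precursor. SnoRNPs modify that precursor, and successive sets of assembly factors cut it, fold it and load ribosomal proteins to give the small and the large subunit. Quiescent stem cells hold this machinery low, and entry into growth raises it, with the transcription factor Myc as a known activator of many of its genes.

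A feature of these genes other than their measured difference was read from promoter sequence. The list comes from a pathway with Myc as a known activator, so its share of Myc motifs is given as a description. RefSeq promoter windows (GRCm38.p6, 250 bases before the start of transcription and 50 bases from it on) were matched by symbol for 37 of the 43 genes, 45 windows in all, and not for Bop1, Fbl, Myc, Npm1, Rrp12 and Rrs1. The letters CACGTG, the core of the E-box to which Myc binds with Max and a palindrome that reads alike on both strands, were found in the windows of 12 of the 37 genes (32.4%), against 10.2% of the 14778 tested genes with a window and 8.09% of all 27025 genes with one. Of the 13 boxes in the 12 genes, 9 lay 3 to 41 bases inside the transcript, counting the base at the start as 1, whereas 13.7% of the 1811 boxes of all tested genes lay downstream of the start. The boxes are printed 5′ to 3′ on the strand of the gene with up to 12 bases on each side, to show their flanks, with CACGTG in capitals. The rule named the 4 most abundant of these genes, which come at the head of the list, and the rest were added after the boxes were seen.
Wdr43, chr17:71616220-71616249, plus strand: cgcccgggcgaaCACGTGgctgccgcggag
Utp4, chr8:106893643-106893672, plus strand: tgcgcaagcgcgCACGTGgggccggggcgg
Grwd1, chr7:45830740-45830767, minus strand: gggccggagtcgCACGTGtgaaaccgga
Mybbp1a, chr11:72441355-72441376, plus strand: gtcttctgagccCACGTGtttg
Tsr1, chr11:74898092-74898121, plus strand: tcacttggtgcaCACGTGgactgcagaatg
Pno1, chr11:17211540-17211564, minus strand: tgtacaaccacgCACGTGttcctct
Ltv1, chr10:13193092-13193121, minus strand: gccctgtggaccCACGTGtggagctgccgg
Pes1, chr11:3963965-3963994, plus strand: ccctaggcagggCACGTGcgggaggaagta
Utp20, chr10:88826765-88826789, minus strand: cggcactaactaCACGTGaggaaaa
Nop2, chr6:125131811-125131840, plus strand: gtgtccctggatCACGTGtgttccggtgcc
Rrn3, chr16:13780472-13780501, plus strand: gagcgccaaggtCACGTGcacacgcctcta
Rrn3, chr16:13780639-13780668, plus strand: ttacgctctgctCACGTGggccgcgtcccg
Imp4, chr1:34439696-34439725, plus strand: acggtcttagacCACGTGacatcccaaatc
The boxes of Nop2, Rrn3 and Imp4 lay upstream of the start, at 60 bases for Nop2, at 215 and 48 bases for Rrn3 and at 121 bases for Imp4. A match is a description of letters and not a measured binding site. The shares over tested genes were not taken among genes of like expression.

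Among other motifs searched on both strands, CCGGAAG, a core bound by ETS family factors, was in the windows of 15 of the 37 genes (40.5%) and in 15.5% of tested genes with a window. The palindromic motif of the nuclear respiratory factor Nrf1 was in 8 genes (21.6%, against 8.66%), and the TATA box letters TATAAA were in 3 (8.11%, against 10.9%). The windows had a median GC content of 58.0%, against 58.7% over the windows of all tested genes. In the GENCODE vM21 annotation, 8 of the 43 genes (18.6%) held a snoRNA or scaRNA gene within their bounds on the same strand, against 1.54% of 16736 tested protein-coding genes. These hosts were Wdr43, Tsr1, Gnl3, Ppan, Nop56, Nop58, Dkc1 and Ncl.

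Satellite cell identity was checked with 10 markers, which summed to 10264.5 to 12026 TPM (the authors' values, per transcript length and library total) per library. The 9 leukocyte markers, of which 8 were higher in both Numb6 libraries than in the control of the same mouse, summed to 29.4 TPM (control) and 40.3 TPM (Numb6) in mouse 1 and to 35.9 and 130.9 TPM in mouse 2. Erythroid markers summed to 538 TPM (control) and 928 TPM (Numb6) in mouse 1 and to 1532 and 1733 TPM in mouse 2, and 5 of 5 were higher with Numb6 in both mice. Endothelial markers summed to 118 and 176 TPM in mouse 1 and to 113 and 112 TPM in mouse 2, so they were higher with Numb6 in mouse 1 but not in mouse 2 (3 of 7 higher in both). Markers of smooth muscle and pericytes summed to 174 and 201 TPM in mouse 1 and to 133 and 140.3 TPM in mouse 2 (4 of 6 higher in both). The sums ran from 1305 to 1519 TPM for fibro-adipogenic progenitors, 240 to 304 TPM for glia and 154 to 180 TPM for myofibres, each with the larger sum in the Numb6 library of either mouse. Their markers were higher in both mice for 4 of 7, 2 of 6 and 4 of 9, and those of satellite cells for 6 of 10. In all 8 lists no marker was at 0 in every library. The part of these other cells in the results below was not tested. The estimated counts summed to 230431665 to 355411827 per library and, being derived from coverage, cannot be read as numbers of fragments. Numb itself stood at 27.2 and 39.7 TPM in the control and Numb6 libraries of mouse 1 and at 37.0 and 40.2 TPM in those of mouse 2, and values per gene do not show whether exon 6 was skipped.

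One library stood apart for these genes. In CPM (estimated counts relative to the library total, which was scaled by TMM, the trimmed mean of ratios between libraries), 38 of the 43 genes (88.4%) had their highest value in the control library of mouse 1, where 25.8% of all tested genes did and 30.3% of the 8469 genes whose log2 CPM averaged at least 3, the range in which all 43 lie. The lowest value fell in the Numb6 library of mouse 2 for 30 genes (69.8%, against 22.9% of all tested genes and 27.5% in that range). Relative to each gene's mean over the 4 libraries, the median log2 deviation of the 43 genes was 0.24 in the control and -0.04 in the Numb6 library of mouse 1, and -0.05 and -0.17 in those of mouse 2. For 32 of the 43, the control library of mouse 1 lay above the mean of the other 3 libraries by more than those 3 spanned. In TPM the control library of mouse 1 was the highest for 34 of the 43 (79.1%, against 21.1% of all tested genes). That library also had the largest share of counts in 2 overlapping gene models on chromosome 17, CT010467.1 (39846353 to 39848827, annotated as rRNA) and AY036118 (39847113 to 39848035). Their joint share was 8.95% and 6.53% in the control and Numb6 libraries of mouse 1, and 5.00% and 5.06% in those of mouse 2. The part of these reads in the results was not tested beyond leaving both models out, which gave a median log2 fold change of -0.23 over the 43 genes, as did all genes together.

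**Figure D1:**
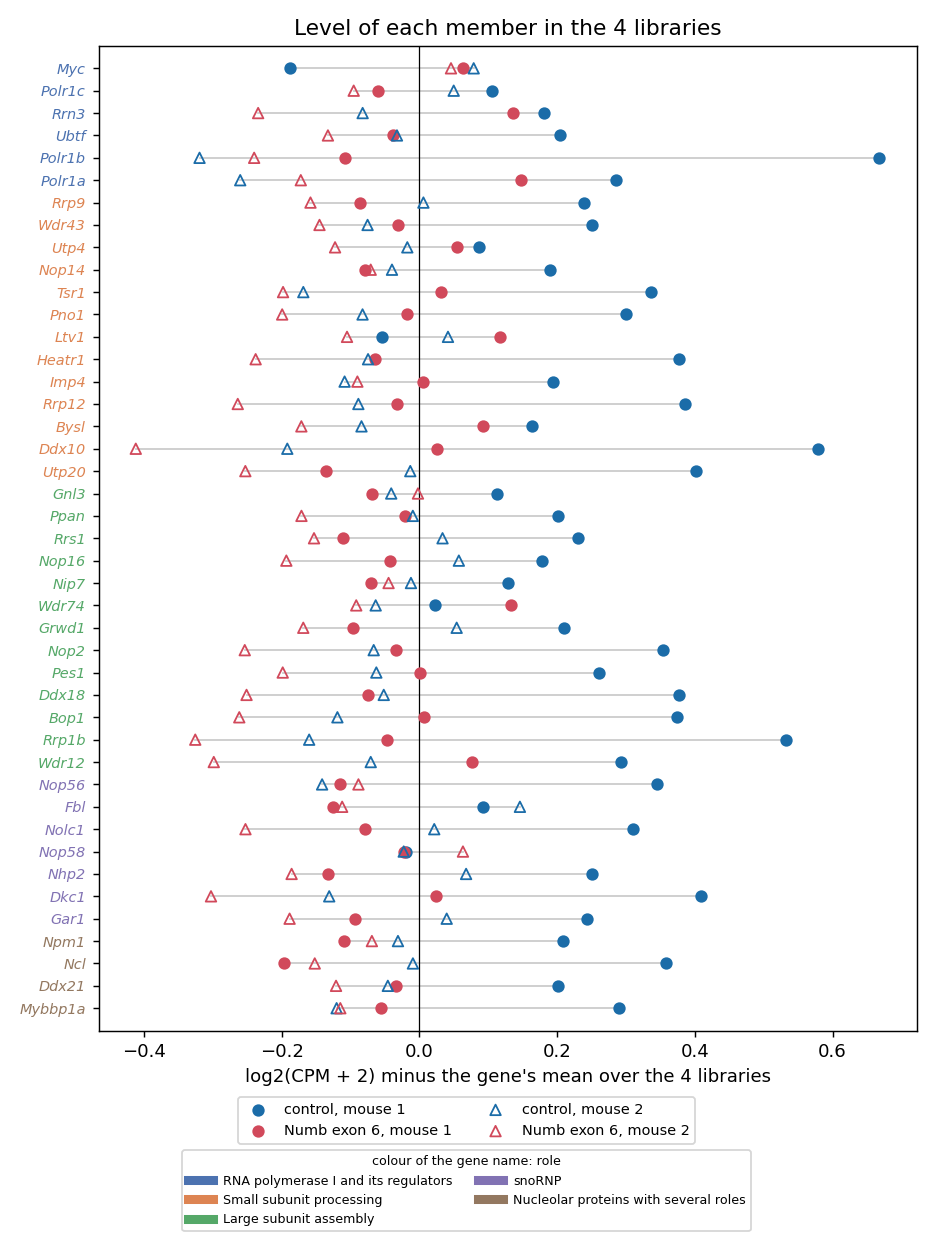
Each line is a gene and each symbol a library, placed by log2(CPM + 2) minus the gene's mean over the 4 libraries. The filled blue circles (control, mouse 1) lie farthest to the right for 38 of 43 genes, and the open red triangles (Numb6, mouse 2) farthest to the left for 30.

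With the Numb6 morpholino most of the 43 transcripts were lower in each mouse, by a small margin. The change in CPM had a median of -19.2% within mouse 1 and of -9.72% within mouse 2. In mouse 1, 40 genes (93%) were lower, against 49.4% of all tested genes and 48.3% of the better expressed. In mouse 2, 36 were lower (83.7%, against 49.6% and 50.9%). Both mice together had 33 genes lower and 0 higher, where 27.3% of all tested genes were lower in both and 28.1% higher in both (30.2% lower in both among the 8469 better expressed genes). The other 10 genes had ratios of opposite sign. In 17 genes (39.5%) both Numb6 libraries lay below both controls, and in 0 above, against 17.1% and 17.4% of all tested genes (16.5% below among the better expressed). The list was chosen with this comparison in view, so nothing is read from these shares. In the fit over all genes edgeR's quasi-likelihood test called 0 of 27551 genes at a Benjamini-Hochberg adjusted p under 0.05 (0%), with or without the mouse as a term, hence 0 of the 43. Of all genes 1145 (4.16%) had an unadjusted p under 0.05. DESeq2 called 65 of all genes and limma-voom 0, and none of those calls was among the 43.

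The median log2 fold change over the 43 genes, Numb6 minus control, was -0.23, against 0.005 over all tested genes. Without the control library of mouse 1 it was -0.03, with 30 genes lower and 13 higher, against 0.03 over all genes, and without the control library of mouse 2 it was -0.37. These 2 values each set 1 remaining control against libraries of both mice. Without the Numb6 library of mouse 2 it was -0.15, nearer to 0 by over 1.5 times, and without that of mouse 1 -0.29. On the authors' TPM values, as log2(TPM + 1), the median was -0.15, with 26 of the 43 genes lower and 1 higher in both mice, against 23% lower and 32.1% higher of all tested genes. In these bulk samples fewer cells that make a transcript and less of it per cell cannot be told apart. The replicates are libraries of 2 animals, and their number limits what the fit can call.

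**Figure D2:**
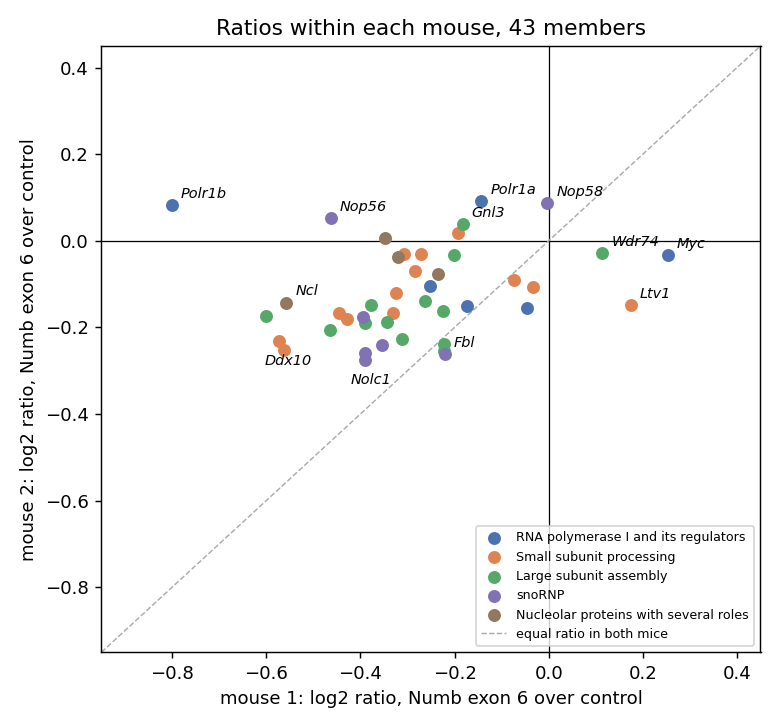
Log2 ratio of Numb6 over control in mouse 1 (horizontal) and mouse 2 (vertical) for the 43 genes, coloured by role, with equal ratios on the dashed line. Of the points, 33 lie left of and below 0 and 34 lie above the dashed line, where the ratio in mouse 1 is the lower.

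Levels of different genes were compared in TPM, a unit per transcript length. Myc led with a mean of 1118 TPM, followed by Nop56 at 692 TPM, Npm1 at 510.0 TPM, Gnl3 at 357 TPM and Ncl at 303 TPM, and the median of the 43 genes was 133 TPM. At the low end stood Wdr12 at 19.7 TPM, Polr1a at 20.1 TPM and Utp20 at 23.6 TPM. Neighbours in this order often overlapped between libraries, as Polr1a (16.6 to 22.8 TPM) did with Wdr12 (15.7 to 22.7 TPM), while Myc (941 to 1185 TPM) lay above Nop56 (593 to 859 TPM) in every library. The 43 genes summed to 8158 and 7385 TPM in the control and Numb6 libraries of mouse 1 and to 7382 and 7098 TPM in those of mouse 2.

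**Figure D3:**
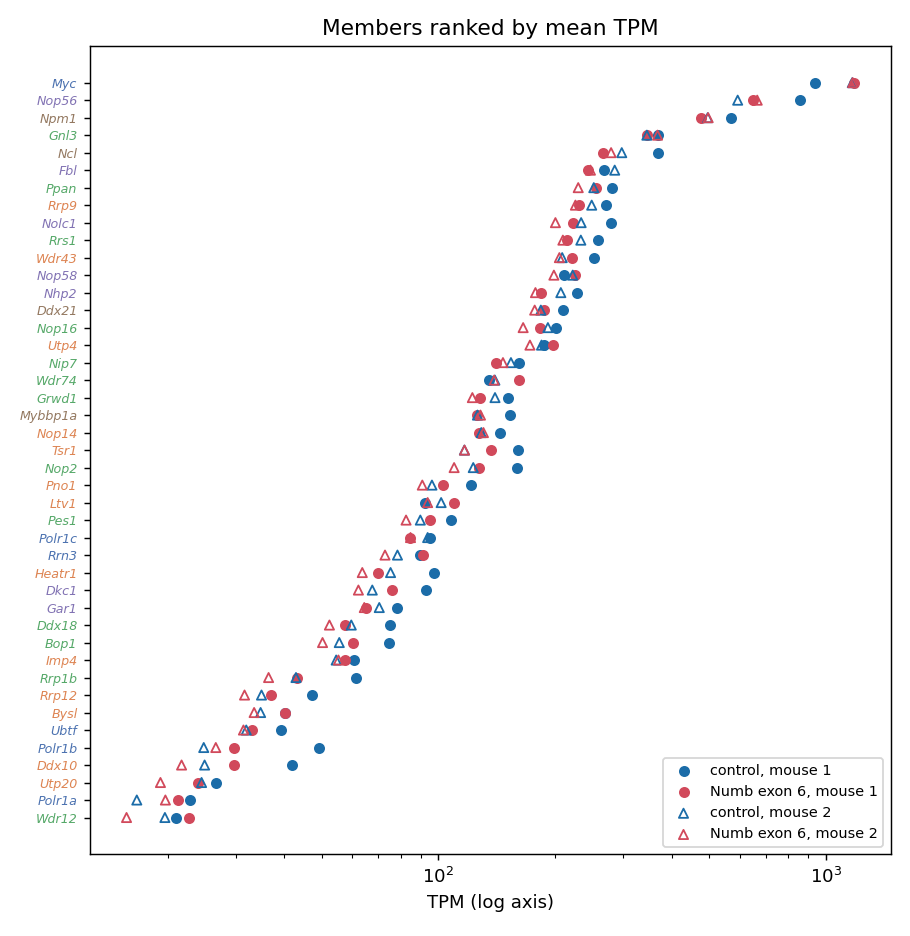
TPM of each gene in the 4 libraries on a log axis, ranked by the mean, with gene names coloured by role as in the plot of levels by library. The range runs from Wdr12 at a mean of 19.7 TPM to Myc at 1118 TPM. The libraries of a gene lie close together compared with this whole range, while those of neighbouring genes often overlap.

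The genes of RNA polymerase I and its regulators had the median nearest to 0 of the 5 roles, a log2 fold change of -0.13, and 3 of 6 were lower in both mice. Myc (chromosome 15, 61985391 to 61990374), the activator of growth genes, had a control value of 977 CPM against 1164 CPM with Numb6 in mouse 1, and of 1176 against 1149.6 CPM in mouse 2. In CPM it was the 1 gene of the 43 whose lowest library was the control of mouse 1, the library in which most of the others peaked. In TPM that library was the lowest for 3 of the 43, Myc among them. The groups of Myc overlapped, and its fitted log2 difference, Numb6 minus control, was 0.10 ± 0.12 (SE, n = 2 libraries each).

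Polr1c, a subunit shared by RNA polymerases I and III, stood at 56.5 and 50.1 CPM in the control and Numb6 libraries of mouse 1 and at 54.3 and 48.9 CPM in those of mouse 2 (log2 fold change -0.16 ± 0.12, SE). Ubtf, which binds ribosomal DNA and keeps it open for transcription, stood at 68.9 and 57.9 CPM in mouse 1 and at 58.1 and 54.1 CPM in mouse 2 (-0.18 ± 0.14). In both of these genes the 2 Numb6 libraries lay below the 2 controls in CPM. In TPM the groups of Ubtf overlapped, with 32.9 TPM in the Numb6 library of mouse 1 and 31.9 TPM in the control of mouse 2. Rrn3, the factor that brings the polymerase to its promoter, stood at 163 and 158 CPM in mouse 1 and at 135 and 122 CPM in mouse 2 (-0.09 ± 0.18), so it separated by mouse and not by morpholino. The largest subunit Polr1a separated likewise, at 70.8 and 64.2 CPM in mouse 1 and 47.9 and 51.0 CPM in mouse 2. The other large subunit, Polr1b, had 85.0 CPM in the control library of mouse 1 and 41.9 to 48.8 CPM in the other 3 libraries, so its log2 ratio was -0.80 within mouse 1 but 0.08 within mouse 2. Polr1a and Polr1b were described after their values were seen.

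Of the 13 genes of small subunit processing, 11 were lower in both mice and 0 higher, and the log2 fold changes had a median of -0.19. Rrp9, a protein of the U3 snoRNP that guides cleavage of the precursor, stood at 192 and 153 CPM in the control and Numb6 libraries of mouse 1 and at 163 and 145 CPM in those of mouse 2 (log2 fold change -0.25 ± 0.13, SE, n = 2 per group). Wdr43, a member of the early processome that also links it to transcription, stood at 346 and 284 CPM in mouse 1 and at 275 and 262 CPM in mouse 2 (-0.19 ± 0.15). Rrp9 separated the groups, with both controls on top, whereas in Wdr43 the control of mouse 2 lay under the Numb6 library of mouse 1.

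Utp4, from the same early complex, had 249 and 243 CPM in mouse 1 and 231 and 215 CPM in mouse 2 (-0.07 ± 0.12). Nop14, a scaffold of the small subunit precursor, had 203 and 168 CPM in mouse 1 and 173 and 169 CPM in mouse 2 (-0.16 ± 0.12), and its groups did not overlap in CPM. In TPM they did, at 145 and 128 TPM in mouse 1 and 129 and 131 TPM in mouse 2. Utp4 was higher with Numb6 in mouse 1 in TPM, at 187 and 197 TPM. The remaining members of this role had log2 fold changes from -0.44 for Ddx10, an RNA helicase, to 0.02 for Ltv1, a factor of late maturation and nuclear export. Utp20 and Heatr1, large scaffold proteins of the processome, had -0.42 ± 0.19 and -0.32 ± 0.18 (SE). Rrp12 and Pno1 had -0.32 ± 0.20 and -0.23 ± 0.17. Imp4, a U3 snoRNP protein, and Ltv1 were the 2 of the 13 with ratios of opposite sign in the mice. Tsr1 shares 1240 bases of exon with the gene Srr on the opposite strand, and the library method keeps no strand, so its counts are uncertain.

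The assembly factors of the large subunit had a median log2 fold change of -0.24, and 11 of 13 were lower in both mice and 0 higher. Rrs1, which helps to place the 5S ribonucleoprotein, stood at 285 and 225 CPM in the control and Numb6 libraries of mouse 1 and at 249 and 218 CPM in those of mouse 2 (-0.27 ± 0.12, SE, n = 2 per group). Nop16, another factor of the early large subunit, had 187 and 160.2 CPM in mouse 1 and 172 and 144 CPM in mouse 2 (-0.24 ± 0.12). Ppan, required for processing of the large subunit RNA, had 273 and 234 CPM in mouse 1 and 236 and 210.4 CPM in mouse 2 (-0.20 ± 0.13). In all 3 genes both controls lay above both Numb6 libraries in CPM, although for Ppan by only a small gap. In TPM the groups of Ppan overlapped, with 255 TPM in the Numb6 library of mouse 1 and 252 TPM in the control of mouse 2.

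Gnl3, or nucleostemin, a nucleolar GTP-binding protein known from stem cells, was the most abundant of this role and differed from the pattern. It stood at 309.9 and 273 CPM in mouse 1 and at 278 and 286 CPM in mouse 2 (-0.07 ± 0.11). Its control and Numb6 libraries overlapped. Pes1, Bop1 and Wdr12, which form the PeBoW complex of large subunit maturation, gave -0.21 ± 0.16, -0.28 ± 0.21 and -0.23 ± 0.21 (log2 fold change ± SE) and were lower in both mice. Wdr12 was not lower in mouse 1 on the TPM scale, where its log2 ratio was 0.11, and Wdr74 was higher in mouse 1 on both scales. Across this role the log2 fold changes ran from -0.42 ± 0.27 for Rrp1b to 0.05 ± 0.13 for Wdr74 (SE). Ddx18, Nop2, Grwd1 and Nip7 had -0.35 ± 0.19, -0.30 ± 0.18, -0.27 ± 0.12 and -0.12 ± 0.11. These and Rrp1b were lower in both mice in CPM.

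The snoRNP genes had the lowest median of the roles, -0.30, and 5 of 7 were lower in both mice and 0 higher. The proteins of box C/D snoRNPs, which place methyl groups on the ribosomal RNA, differed among themselves. Fbl, fibrillarin, the methyltransferase itself, stood at 179 and 154 CPM in the control and Numb6 libraries of mouse 1 and at 186 and 155 CPM in those of mouse 2 (log2 fold change -0.24 ± 0.10, SE, n = 2 per group). Both controls lay above both Numb6 libraries, and Fbl was among the 5 genes whose highest library was not the control of mouse 1. Its partner Nop56 had 521 CPM in the control of mouse 1 and 371 to 385 CPM in the other 3 libraries, and the partner Nop58 had 534 and 533 CPM in mouse 1 and 533 and 566 CPM in mouse 2. The log2 fold changes were -0.23 ± 0.18 and 0.04 ± 0.10. For Nop58 the scales disagree: in TPM the Numb6 library of mouse 2, the highest in CPM, was the lowest at 199 TPM, against 211 to 225 TPM in the others.

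Nolc1, a phosphoprotein that shuttles with snoRNPs and scaffolds the nucleolus, stood at 347 and 264 CPM in mouse 1 and at 284 and 234 CPM in mouse 2 (-0.34 ± 0.14, SE). Both controls lay above both Numb6 libraries. Dkc1, Gar1 and Nhp2, core proteins of the box H/ACA snoRNPs that form pseudouridine, gave -0.30 ± 0.23, -0.30 ± 0.14 and -0.33 ± 0.12 (log2 fold change ± SE), and each was lower in both mice. Gar1 and Nhp2 separated the groups and Dkc1 did not. Without the control library of mouse 1 the median of the 7 snoRNP genes was -0.19, with 4 lower and 3 higher, while those of the other roles lay between -0.05 and 0.01. This difference between roles was not tested. In the same fit the 14 snoRNP genes outside the 43 had a median of 0.06, with 6 lower and 8 higher.

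The nucleolar proteins with several roles included the 2 classic abundant ones, and 3 of the 4 were lower in both mice and 0 higher. Ncl, nucleolin, which acts in transcription and early processing, had a control value of 1327 CPM against 902 CPM with Numb6 in mouse 1, and of 1027 against 931 CPM in mouse 2 (-0.36 ± 0.15, SE, n = 2 per group). Npm1, nucleophosmin, a chaperone of the outer nucleolus, stood at 467 and 375 CPM in mouse 1 and at 395 and 385 CPM in mouse 2 (-0.18 ± 0.12). In both genes the controls lay above the Numb6 libraries in CPM, with most of the gap in mouse 1. In TPM the groups of Npm1 overlapped, with 496 TPM in the control and 497 TPM in the Numb6 library of mouse 2. Npm1 is known to have processed pseudogenes, so the split of its reads is uncertain. Ddx21, a helicase of polymerase I transcription, had 508 and 432 CPM in mouse 1 and 428 and 406 CPM in mouse 2 (-0.16 ± 0.13). Mybbp1a, a nucleolar regulator, had 268 CPM in the control of mouse 1 and 201 to 210.3 CPM in the other 3 libraries (-0.19 ± 0.16).

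Genes of the same pathway outside the list of 43 were compared next. Their lists too were chosen with earlier results of these data known, so the counts are a description. Of 170 further genes of RNA polymerases I and III, both subunits, snoRNPs and the exosome, 105 were lower and 16 higher in both mice. Their log2 fold changes had a median of -0.15, and edgeR called 0 of them. Without the control library of mouse 1 their median was -0.01, with 89 lower and 81 higher. By role, 38 of 56 large subunit genes, 33 of 47 small subunit genes, 8 of 14 genes of polymerase I and 8 of 14 snoRNP genes were lower in both mice, and 3, 3, 2 and 3 were higher. The medians were -0.17, -0.16, -0.09 and -0.15. Nat10 was counted in both subunit lists. Of 18 exosome and nuclease genes, 9 were lower and 2 higher (median -0.12), and of 22 genes of polymerase III, which makes the 5S RNA, 9 were lower and 3 higher (-0.11).

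The 2 most abundant genes of each of these lists are given by rule. The log2 fold changes were -0.06 ± 0.13 for Polr1d and -0.09 ± 0.11 for Zfp593 of the polymerase I list, -0.10 ± 0.15 for Rcl1 and 0.02 ± 0.12 for Riok3 of the small subunit, and -0.03 ± 0.11 for Sbds and -0.19 ± 0.12 for Rsl1d1 of the large one (SE). Zfp593 had been placed in that list but is known as a factor of the large subunit precursor. Those of Snu13 and Ruvbl1 among snoRNP genes were 0.05 ± 0.10 and -0.12 ± 0.15, those of Xrn2 and Exosc10 among nucleases -0.12 ± 0.12 and -0.18 ± 0.15, and those of Polr3d and Maf1 of polymerase III 0.08 ± 0.16 and -0.02 ± 0.13.

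Partners and antagonists of Myc had a median of -0.08, with 4 of 14 lower and 3 higher in both mice. Bin1 and Mlxip, the most abundant of them, had log2 fold changes of 0.12 ± 0.11 and -0.11 ± 0.16 (SE). The noncoding host genes of snoRNAs pointed the other way, where 9 of 15 were higher and 1 lower in both mice and the median was 0.08. Gas5, the most abundant host, stood at 223 and 236 CPM in the control and Numb6 libraries of mouse 1 and at 242 and 246 CPM in those of mouse 2 (0.05 ± 0.11), and Snhg15 had 0.13 ± 0.13. The control library of mouse 1 was the lowest for Gas5, and without it the median of the host genes was 0.15.

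**Figure D4:**
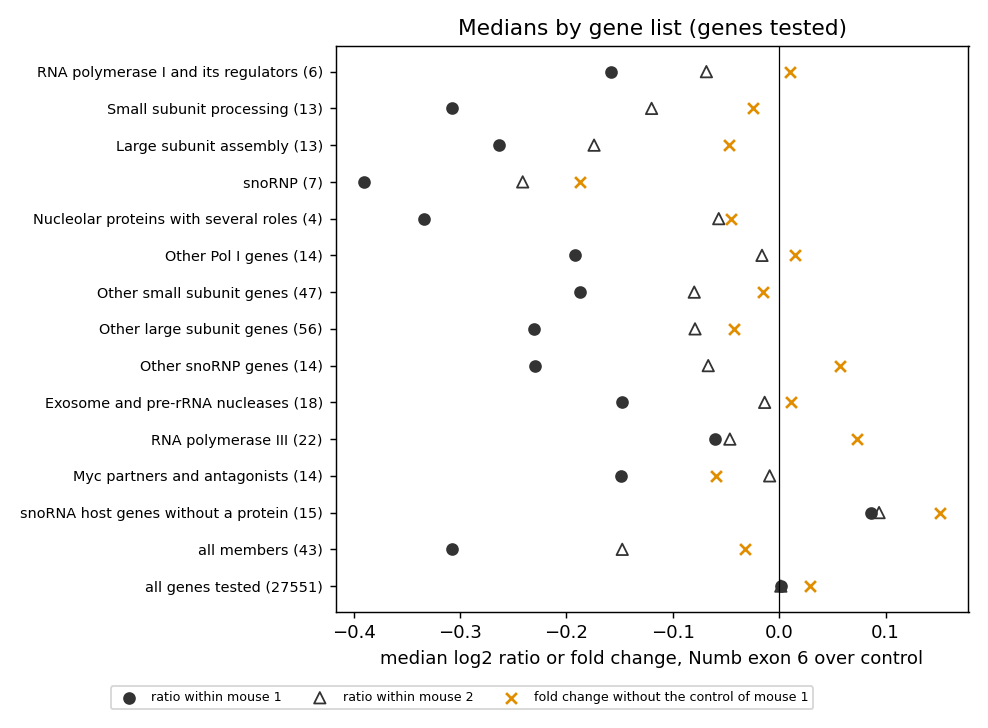
Median over each gene list (number of genes tested in brackets) of the log2 ratio within mouse 1 (filled circles) and mouse 2 (open triangles), and of the log2 fold change without the control library of mouse 1 (crosses). The 43 genes lie at -0.31 in mouse 1, -0.15 in mouse 2 and -0.03 without that library, and the snoRNA host genes lie right of 0 on all 3 measures.

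The mice were also compared, a contrast other than the one used to choose the genes. It sets 1 animal against 1, and its p values measure the spread between the 2 libraries of an animal, which are its 2 morpholino treatments. Both comparisons use the same 4 libraries, so this one is not independent of the choice of the genes. The control library of mouse 1, the highest for 38 of the 43 genes, enters both. Nothing is therefore read from the counts and shares that follow. The median log2 fold change of the 43 genes, mouse 2 minus mouse 1, was -0.20, with 40 genes lower and 3 higher, against a median of 0.02 over all tested genes. Markers of other cells differed between the mice too, with median log2 fold changes of 1.16 for erythroid cells, -0.57 for smooth muscle and pericytes, -0.51 for endothelium, -0.21 for fibro-adipogenic progenitors and 0.22 for leukocytes, and their part in the difference was not tested. By edgeR 0 of the 43 passed at an adjusted p of 0.05, where 7 of all genes did (0.0254%), and 8 of the 43 had an unadjusted p under 0.05 (18.6%, against 8.31% of all genes). DESeq2 and limma-voom called 0 of the 43 as well, with 11 and 8 at an unadjusted p under 0.05, where 2877 and 2406 of all 27551 genes had one. In 21 of the 43 genes (48.8%) both libraries of mouse 2 lay below both of mouse 1 and in 0 above, against 18.8% and 20.9% of all tested genes. These last shares were not taken among the better expressed genes alone.

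The 8 genes were Polr1a, Rrn3, Bysl, Tsr1, Ddx10, Wdr12, Bop1 and Dkc1, with log2 fold changes between -0.65 ± 0.21 for Ddx10 and -0.26 ± 0.10 for Bysl (SE, n = 2 libraries per mouse). Polr1a had -0.45 ± 0.11 and Rrn3 -0.32 ± 0.10, each with an edgeR adjusted p of 0.542. Differences no larger than their SE included Fbl at 0.04 ± 0.14, Nop58 at 0.04 ± 0.09 and Gnl3 at -0.05 ± 0.10. Without the control library of mouse 1 the median was -0.07, with 28 genes lower and 15 higher, and leaving out its Numb6 library gave -0.33.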

How the data were processed

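Gene expression was measured by the SMART-Seq2 method from 5 ng of RNA per sample, per the labels' protocols. HISAT2 2.1.0, StringTie 1.3.6 and the GRCm38 build come from the submitters' processing notes, and how counts were made from coverage is not stated there. The authors' deposited estimated counts are whole numbers. In each library 99.96% or more of the genes with 1 annotated transcript and over 500 counts had a count within 1% of a fixed multiple of TPM times length. Each TPM value deposited by the authors is per transcript length and library total.

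The members and gene lists were chosen with earlier results of these data known. Counts were tested with edgeR 4.0.16 in R 4.3.3 (robust quasi-likelihood, TMM, default expression filter by group, no block, Benjamini-Hochberg adjustment at 0.05). The SE was derived from the quasi-likelihood statistic of the fit with no block. For the morpholino it therefore counts the difference between the mice as spread. Adding the mouse as a term gave a smaller SE, for example 0.10 against 0.23 for Dkc1. The prior count for log2 CPM in ratios within a mouse was 2. The labels pair the samples by animal. Deviations from group means correlated within pairs at r = 0.401 across genes averaging a log2 CPM of at least 3, and at 0.0561 across every tested gene. Named genes were all 43, with values in every library for the 4 most abundant of each role, and the 2 most abundant of each further list. Alternatives were the mouse block, DESeq2 1.42.0, RLE size factors, filters on counts, limma-voom (limma 3.58.1), limma on log2(TPM + 1) and log2(TPM + 0.1), and each library left out. DESeq2 with the block, removal of CT010467.1 and AY036118, and counts divided by 4 were added after the data were seen. Tests were checked on simulated counts, drawn independently for each library and with planted changes larger than those fitted for the 43 genes. How the tests do with paired libraries or smaller changes was therefore not checked. Coordinates come from GENCODE vM21.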

Additional observations from a re-analysis of the deposited data

How the results depend on the processing

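Under edgeR with a replicate block for the mouse, 0 genes and 0 of the 43 passed for the morpholino, so the pairing changed no edgeR call. It did change the unadjusted p values. Of the 43, 17 had one under 0.05 with the block and 1 without it (1677 and 1145 of all 27551 genes). The 43 were chosen on this comparison, so nothing is read from their counts. For the mice, 16 of the 43 had an unadjusted p under 0.05 with the morpholino as a block (2596 of all 27551 genes), against 8 without it (2290 of all genes). None of the alternatives called any of the 43 genes in either comparison. For the morpholino the number of genes called over all genes was 10 without a filter, 1 at a CPM of at least 5 in 2 libraries, 65 with DESeq2 and 159 with DESeq2 and the mouse as a block, and 0 to 1 with 1 library left out. For the mice it was 7 in edgeR, 1 with the morpholino as a block, 119 without a filter, 43 at a CPM of at least 5 in 2 libraries, 495 with DESeq2, 23 on log2(TPM + 1), 22 on log2(TPM + 0.1), 2 on log2(TPM + 1) without a filter, 11 with counts divided by 4, and 1 to 14 with 1 library left out. The cause of these differences was not tested. With 1 library left out, the median log2 fold change of the 43 genes ran from -0.371 to -0.0325 for the morpholino and from -0.328 to -0.0687 for the mice. In those fits the lone library of a group is assumed to vary like the others.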
